A study of Mus musculus with 4 samples.

Results

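The collagen gene family was followed in chromatin accessibility data of mouse lymph node fibroblasts. Its members were the accessible regions assigned to 44 collagen genes: 522 of 110110 regions in all, at 43 of the 44 genes. Col10a1, a network-forming collagen of growth plate cartilage, had no assigned region and was not analysed here. A region was made of overlapping 300-bp windows, and it was given the protein-coding gene that its midpoint overlapped or else the nearest one within 100000 bp. By this rule 365 collagen regions lay inside their gene and 157 outside it, at up to 97618 bp. A gene had 1 to 31 regions, with a median of 12. Being nearest does not establish which gene a region regulates.

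Collagens are triple-helical proteins of the extracellular matrix. Fibrillar chains build the banded fibrils that bear load, collagen IV chains form the sheet-like network of basement membranes, and the FACIT chains (fibril-associated collagens with interrupted triple helices) sit on fibril surfaces. In lymph nodes, fibroblastic reticular cells (FRCs) wrap strands of these proteins and so build the reticular fibres and conduits along which lymphocytes and small soluble molecules move.

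The assay was ATAC-seq: a transposase cuts DNA where chromatin is open and tags the ends for sequencing. The FRCs came from peripheral lymph nodes (brachial, axillary and inguinal) of female C57BL/6 mice aged 12 weeks and were sorted as BP3hi Pdpn+ CD31- CD45- cells. The 2 Notch2_cKO libraries came from mice carrying Ccl19-Cre and Notch2 fl/fl, so Notch2, a Notch receptor, is deleted where a Cre driven from Ccl19 has been active. The 2 control libraries came from Notch2 fl/fl littermates without the Cre, so both groups carried the floxed alleles. Each library was a separate pool of 6 mice and 50000 sorted cells, and p-values measure the spread between these pools only. Because the cells were measured in bulk, fewer cells of a type and a weaker signal per cell cannot be told apart.

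Levels are normalized CPM, the count of a region's best window scaled to library size with loess adjustment, given in the order control 1 and 2 and Notch2_cKO 1 and 2. A change is the log2 of Notch2_cKO over control with its standard error (SE), and a region is called higher or lower where the Benjamini-Hochberg adjusted p of edgeR's quasi-likelihood test, taken over all 110110 regions, is under 0.05. An exact permutation test of 2 against 2 libraries cannot go below 0.333, so no such test is given. Positions are in mm10, and distances to a start run from the middle of a region's best window to the gene's nearest annotated start.

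Summed over best windows, the libraries held 12340742 to 30260067 counts, with Notch2_cKO 2 the shallowest. Control 2 held 30 to 221 counts at 5 regions of the Y-linked genes Kdm5d, Eif2s3y, Uty and Ddx3y, where the other 3 libraries held 0 or 1, although all pools are labelled female. Calls at single collagen regions described below that were lost without control 2 are given as such. Of the genes behind the sort, Pdpn held 141 and 142 CPM in the controls and 150 and 156 CPM in Notch2_cKO, summed over 11 regions of which 3 were higher, and Bst1, which encodes BP3, 88.2 and 90.8 against 87.9 and 91.7 CPM, with 1 of 6 regions lower. The wider list of reticular cell genes (11 of 13 genes with a region, 116 regions) was 17 higher and 9 lower and summed to 1100, 1120, 1110 and 1180 CPM. Within it the chemokine gene Cxcl12 was 8 higher and 1 lower of 20 regions (78.9, 84.5, 110 and 99.6 CPM) and the adhesion gene Vcam1 0 higher and 4 lower of 17. Ccl19 and Ccl21a had no assigned region. Among markers of other cell types, regions of lymphatic endothelial genes (6 of 7 genes with a region, 52 regions) were 0 higher and 8 lower and summed to 277 to 290 CPM in the controls against 235 to 251 in Notch2_cKO; Prox1 (35.6 to 42.5 CPM) and Lyve1 (2.54 to 3.52 CPM) were not at 0. Reln, which encodes a secreted glycoprotein, held 6 of those 8 lower regions, with 110, 102, 63.0 and 74.6 CPM, and without it the list summed to 180, 175, 171 and 176 CPM. Leukocyte regions (20 regions at 7 genes) were 0 higher and 2 lower, at 138 to 148 against 127 to 131 CPM. Blood endothelial regions (8 of 8 genes, 55 regions) were 8 higher and 3 lower, at 287 to 293 against 307 to 329 CPM; Cdh5, an endothelial cadherin gene, was 3 higher and 1 lower of 12 (78.0, 81.4, 111 and 103 CPM), Kdr, a VEGF receptor gene, 1 higher and 2 lower of 12 (40.5, 40.0, 36.0 and 31.5 CPM), and without Cdh5 the list summed to 215, 206, 218 and 204 CPM. Chondrocyte regions (3 of 3 genes, 9 regions) were 2 higher and 0 lower, at 47.2 to 50.7 against 54.1 to 59.5 CPM. For mural cells (8 of 8 genes, 76 regions, 5 higher and 9 lower) and epithelium (3 of 3 genes, 14 regions, 0 higher and 2 lower) the summed levels of the groups overlapped. The part of these levels in the results below was not tested.

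The start of 4 collagen genes is shown because accessibility there bears on what follows: open starts that did not pass at Col1a2 and Col3a1, a higher start at Col15a1 and a lower one at Col25a1. The stretches are the 250 bases before the RefSeq start (GRCm38.p6, the assembly of mm10), read 5′ to 3′ on the gene's strand, at chr6:4505368-4505617 (+), chr1:45311288-45311537 (+), chr4:47207762-47208011 (+) and chr3:130180595-130180844 (+). Capitals mark matches on either strand to the GC box (GGGCGG), the CCAAT box (CCAAT) and the TATA box (TATAAA).
Col1a2: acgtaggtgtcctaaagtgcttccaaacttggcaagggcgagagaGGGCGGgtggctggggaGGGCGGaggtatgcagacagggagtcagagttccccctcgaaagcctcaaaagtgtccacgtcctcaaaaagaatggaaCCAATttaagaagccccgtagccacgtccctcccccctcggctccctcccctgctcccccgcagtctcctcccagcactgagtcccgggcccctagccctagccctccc
Col3a1: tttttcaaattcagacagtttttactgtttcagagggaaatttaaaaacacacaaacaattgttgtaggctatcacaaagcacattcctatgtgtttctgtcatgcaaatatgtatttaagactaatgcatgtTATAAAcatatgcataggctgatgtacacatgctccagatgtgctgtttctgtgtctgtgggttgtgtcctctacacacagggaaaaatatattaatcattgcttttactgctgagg
Col15a1: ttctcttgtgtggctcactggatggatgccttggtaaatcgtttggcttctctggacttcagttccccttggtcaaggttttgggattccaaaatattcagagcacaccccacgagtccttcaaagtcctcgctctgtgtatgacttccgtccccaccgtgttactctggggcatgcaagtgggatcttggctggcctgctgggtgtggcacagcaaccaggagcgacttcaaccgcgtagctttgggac
Col25a1: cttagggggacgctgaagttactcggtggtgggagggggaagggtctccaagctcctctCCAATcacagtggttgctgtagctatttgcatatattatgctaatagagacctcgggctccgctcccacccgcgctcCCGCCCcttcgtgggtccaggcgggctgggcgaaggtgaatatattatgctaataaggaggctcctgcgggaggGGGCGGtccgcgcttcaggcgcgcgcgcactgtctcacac
The Col1a2 and Col25a1 stretches each held 2 GC boxes and 1 CCAAT box, Col3a1 held 1 TATA box, and Col15a1 held no match to these letters. Accessible regions covered all 250 bases at Col1a2, Col3a1 and Col25a1, and 111 bases at Col15a1. The RefSeq promoter table held 38 entries for 35 of the 44 genes. Col1a1, Col2a1, Col4a3, Col5a2, Col9a3, Col12a1, Col14a1, Col22a1 and Col26a1 had no entry. A GC box was present in 22 of the 38 collagen entries and in 32.7% of all 32851 promoters, a CCAAT box in 13 and 33.8%, and a TATA box in 5 and 12.4%. The core TGGGAA, bound by RBPJ, the DNA-binding partner of Notch receptors, was present in 12 collagen entries and 21.6% of all promoters. The AP-1 motif TGANTCA was present in 1 collagen entry, that of Col6a1, and in 6.75% of all promoters. All 5 motifs were searched on both strands, and none of them contains another. A match describes letters only.

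The comparison asks whether accessibility at collagen genes differs where Notch2 is targeted. Collagen loci differed between the genotypes in both directions. Of the 522 regions, 78 were higher in Notch2_cKO, 64 were lower and 380 did not pass, so 27.2% were called, beside 23.7% of all 110110 regions (12.4% higher and 11.3% lower). The median log2 change was 0.033 over collagen regions and 0.0050 over all regions, and the groups did not overlap at 61.3% of collagen regions beside 59.8% of all. At every called collagen region the groups did not overlap. Where this is stated below for called regions, it is therefore no separate support. At an unadjusted p under 0.05 there were 208 collagen regions, where 34.8% of all regions were called. Changes of at least 2-fold that were also called numbered 35 higher and 24 lower, beside 5.48% and 4.42% of all regions. DESeq2 called 68 collagen regions, 44 higher and 24 lower, where it called 11.6% of all regions. Without control 2, edgeR called 93 collagen regions, beside 15.5% of all regions, and without Notch2_cKO 2, the shallowest library, 167, beside 27.5% of all.

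**Figure D1:**
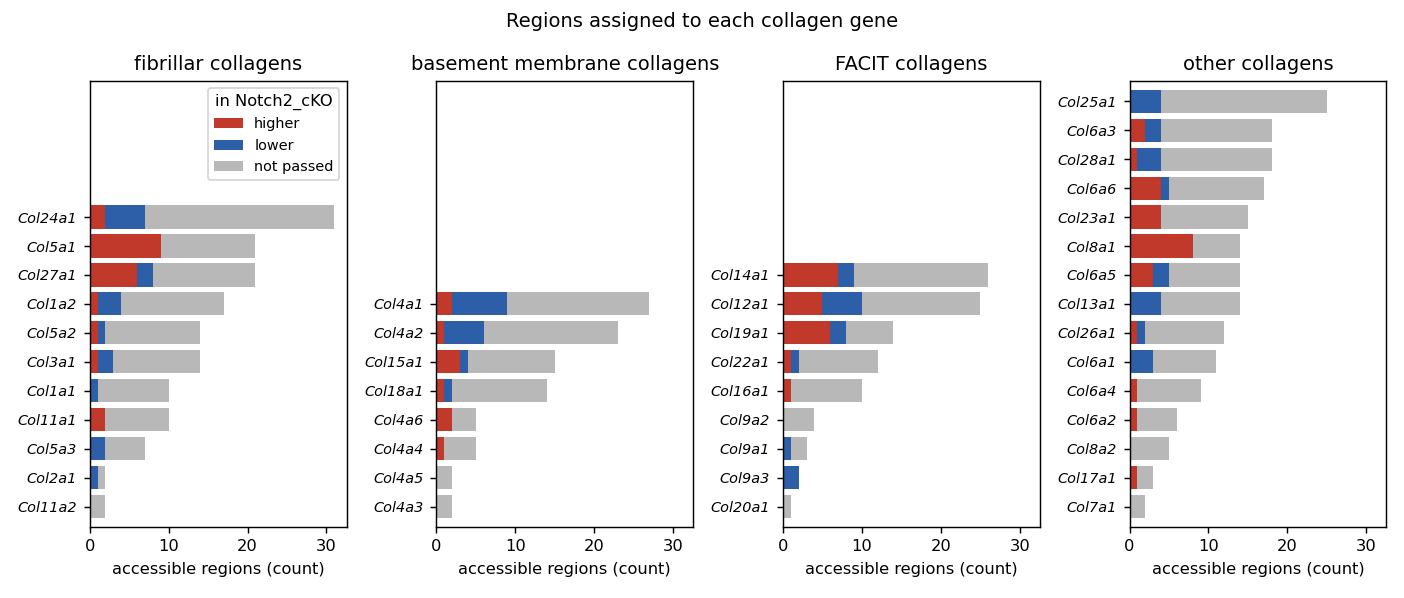
Accessible regions assigned to each of the 43 collagen genes, in 4 panels by class; the horizontal axis counts regions, with red for higher in Notch2_cKO, blue for lower and grey for not passed (edgeR adjusted p under 0.05). Col5a1 (9), Col8a1 (8) and Col23a1 (4) had only higher calls, Col13a1 (4), Col25a1 (4) and Col6a1 (3) only lower ones, and both colours appear at 18 genes.

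Called regions were spread over 36 of the 43 genes, as the counts by gene show. At 18 genes they went both ways, at 10 they were all higher and at 8 all lower. The 7 genes with none were Col4a3, Col4a5, Col7a1, Col8a2, Col9a2, Col11a2 and Col20a1, and these had 1 to 5 regions each. At 6 genes at least 3 regions were called and all went one way: Col5a1 (9 higher), Col8a1 (8 higher), Col23a1 (4 higher), Col13a1 (4 lower), Col25a1 (4 lower) and Col6a1 (3 lower). Matching counts over all genes are not given here. Collagen genes had a median of 12 regions, against 3 for all genes, and 23.7% of all regions were called. The spread over genes is therefore not read as particular to collagens.

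Collagen gene starts were read apart from the rest of the loci. Of 21 regions within 1000 bp of their own gene's start, 2 were higher, 2 were lower and 17 did not pass. Within 1000 bp of any gene's start, 2 of 29 collagen regions were higher and 2 lower (13.8% called). Of all 12537 such regions 10.9% were called. These 21 had a median level of 16.1 CPM, against 3.43 CPM for the 501 other collagen regions, of which 76 were higher and 62 lower. The difference between the 2 sets in the share called was not tested. The 9 genes without a promoter entry had no start position here, so that all their regions count among the 501. Among regions under 1.63 CPM on average, 17.6% of 131 collagen regions were called (16.7% of all regions at that level). The shares were 32.5% up to 3.43 CPM (27.8% of all), 29.0% up to 8.77 CPM (29.7%) and 30.2% above it (20.7%).

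**Figure D2:**
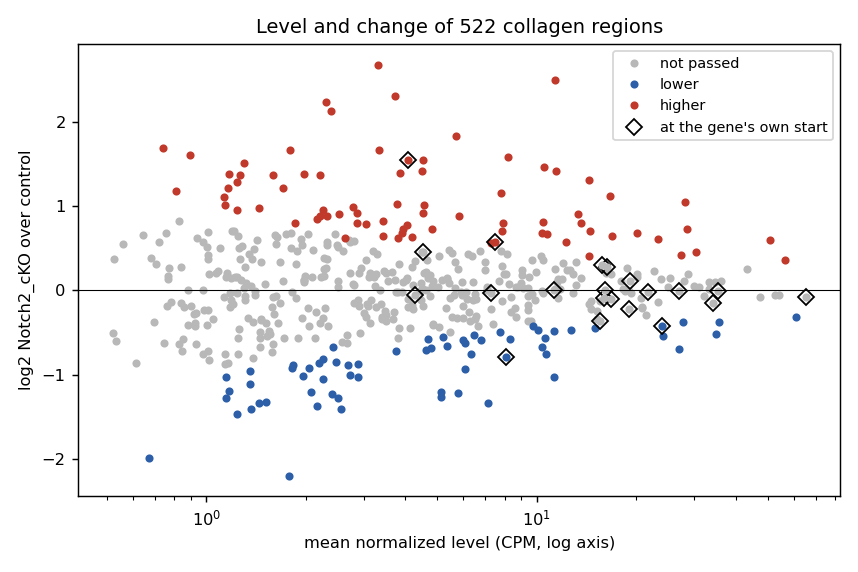
Each of the 522 collagen regions by mean level over the 4 libraries (CPM, log axis) and log2 change of Notch2_cKO over control; red is higher, blue lower and grey not passed, and open diamonds mark the 21 regions at their gene's own start. The diamonds lie at a median of 16.1 CPM and 17 of them did not pass, while the changes beyond 2 on the log2 scale lie among other regions.

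Of the starts of main structural collagens that had a region, all but that of Col15a1 (below) did not pass. Col1a1, Col5a2 and Col14a1 had no start position here. Col1a2, which encodes a chain of collagen I, the bulk fibril protein of most connective tissue, had the most accessible of all collagen regions at its start, with 67.8, 66.1, 59.9 and 67.4 CPM (log2 -0.08, SE 0.09, edgeR adjusted p = 0.601). The libraries overlapped, although with TMM scaling the region was called lower (log2 -0.27, edgeR adjusted p = 0.049). At Col3a1, the collagen III chain of reticular fibres, the start held 16.4, 15.6, 14.3 and 18.2 CPM (log2 0.00, SE 0.14, edgeR adjusted p = 0.992). The start of Col5a1, whose chain helps set fibril diameter, held 36.2, 36.6, 37.3 and 27.1 CPM and did not pass (edgeR adjusted p = 0.421). Single libraries decided some of these: without Notch2_cKO 1, the starts of Col5a1 (log2 -0.42, edgeR adjusted p = 0.00317) and of Col4a1 (log2 -0.46, edgeR adjusted p = 0.0179) were called lower and that of Col6a1 higher (log2 0.41, edgeR adjusted p = 0.0417). Starts of Col6a2, Col6a3 and Col18a1 did not pass either (log2 0.11, -0.03 and 0.00).

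The 4 called starts are all named, those of Col19a1 and Col25a1 after their values were seen. At Col19a1 and Col24a1 the called region lay within 1000 bp of the start but did not reach the 250 bases before it. Higher starts were those of Col19a1, a FACIT chain, and Col15a1, a basement membrane zone collagen that carries heparan and chondroitin sulphate. At Col19a1 the region 837 bp after the start held 2.18, 2.02, 6.77 and 5.30 CPM (log2 1.56, SE 0.21, edgeR adjusted p = 1.62e-05), with both Notch2_cKO libraries above both controls. Col15a1 held 6.04, 6.24, 10.4 and 7.37 CPM at its start (log2 0.57, SE 0.18, edgeR adjusted p = 0.0228). The groups did not overlap there, but the call was lost without control 1 (edgeR adjusted p = 0.116), without control 2 (0.0923) and without Notch2_cKO 1 (0.428), with limma (0.0505) and with DESeq2. Lower starts were those of Col24a1, a fibrillar chain known from developing bone and eye, and Col25a1, a transmembrane collagen known from neurons and from motor nerve contact with muscle. Col24a1, 978 bp after its start, held 10.7, 9.91, 6.50 and 5.12 CPM (log2 -0.79, SE 0.17, edgeR adjusted p = 0.00156), and Col25a1 29.4, 25.7, 19.8 and 21.3 CPM (log2 -0.43, SE 0.12, edgeR adjusted p = 0.0155; 0.252 without control 1). At both starts the controls were above both Notch2_cKO libraries.

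Fibrillar collagens had 149 regions at 11 genes, of which 22 were higher, 17 lower and 110 not passed (26.2% called, beside 23.7% of all regions). Their summed level was 1278, 1235, 1236 and 1324 CPM, so the groups overlapped. The balance differed from gene to gene. Without control 2, 25 were called, beside 15.5% of all regions.

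Col5a1 stood at one end, with 9 of 21 regions higher and 0 lower. The 9 lay from 45575 bp before the start to 50375 bp into the gene, on both sides of a start that did not pass. The most accessible of them, 27725 bp before the start (chromosome 2, 27858351 to 27859050), held 13.4, 13.2, 22.5 and 18.8 CPM (log2 0.65, SE 0.14, edgeR adjusted p = 0.00166). A region 30125 bp into the gene (27916251 to 27916750) held 0.914, 1.29, 3.09 and 2.60 CPM (log2 1.39, SE 0.26, edgeR adjusted p = 0.00059). The 2 were chosen after their values were seen. In each of the 9 both Notch2_cKO libraries were above both controls. Without control 2 the gene had 6 higher regions and 0 lower, and without Notch2_cKO 1 it had 5 higher and 1 lower. The 76 other regions within 500000 bp had a median log2 change of 0.06.

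Col27a1, a fibrillar chain of cartilage and other developing tissues, had 6 higher and 2 lower of 21 regions, with 3 higher when either control was left out. Of the 11 fibrillar genes it had the higher region of smallest p, inside the gene (chromosome 4, 63308401 to 63308900), with 3.68, 4.50, 12.7 and 11.9 CPM (log2 1.59, SE 0.17, edgeR adjusted p = 1.45e-06). A second one, 6288 bp after the start (63221451 to 63222050), held 10.1, 11.1, 24.0 and 21.7 CPM (log2 1.12, SE 0.14, edgeR adjusted p = 7.3e-06). Between them a region at 63290951 to 63291600 went the other way, with 27.9, 29.5, 20.6 and 18.5 CPM (log2 -0.55, SE 0.12, edgeR adjusted p = 0.0024). Opposite calls thus lay within 1 gene.

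Col24a1 was lower around its start. A region 978 bp after its start and 4 further regions were lower. Of the 4, 3 lay 22022, 10572 and 6622 bp before the start and 1 lay 28428 bp into the gene. With DESeq2 only 2 regions of the gene were lower. Those at 22022 and 10572 bp before the start and 28428 bp into the gene were not called (DESeq2 adjusted p = 0.119, 0.111 and 0.108). The region 6622 bp before the start (chromosome 3, 145285551 to 145286100) held 3.55, 2.38, 0.725 and 0.459 CPM, the largest fall among collagen regions (log2 -2.20, SE 0.31, edgeR adjusted p = 3.85e-05). Farther out the sign turned: a region 35672 bp before the start (145256451 to 145257100) held 9.48, 6.81, 16.6 and 24.7 CPM (log2 1.32, SE 0.19, edgeR adjusted p = 3.23e-05), and one 201378 bp into the gene (145493551 to 145494150) held 10.5, 9.34, 16.9 and 17.8 CPM (log2 0.81, SE 0.14, edgeR adjusted p = 0.00032). The groups did not overlap at any of these.

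The collagen I and III genes changed at single regions outside the gene bodies. Upstream of Col1a2, 3 regions were lower and 1 was higher; without Notch2_cKO 1 the gene had 1 lower and 2 higher. The one 15518 bp before the start (chromosome 6, 4489901 to 4490300) held 41.7, 40.1, 24.9 and 32.9 CPM (log2 -0.52, SE 0.12, edgeR adjusted p = 0.00398), and one 2318 bp before it (4503001 to 4503600) held 31.6, 30.7, 23.1 and 25.3 CPM (log2 -0.37, SE 0.12, edgeR adjusted p = 0.0242). The call of the latter was lost without control 1 (0.205), without control 2 (0.156), without Notch2_cKO 1 (0.095) and with the replicate block (0.0774). Both Notch2_cKO libraries were below both controls at these 2 regions. The higher one, 21518 bp before the start, held 5.91, 6.12, 10.2 and 9.32 CPM (log2 0.71, SE 0.16, edgeR adjusted p = 0.0027). Before Col3a1, a region at 69088 bp (chromosome 1, 45242151 to 45242750) was lower, with 8.10, 7.51, 3.44 and 5.17 CPM (log2 -0.93, SE 0.19, edgeR adjusted p = 0.00143; 0.0634 without Notch2_cKO 1), and one at 11638 bp was higher, with 18.9, 17.8, 24.7 and 31.9 CPM (log2 0.61, SE 0.13, edgeR adjusted p = 0.00238). Col1a1, which encodes the other chain of collagen I, had 1 lower region of 10 (log2 -0.85, edgeR adjusted p = 0.0139; 0.225 without control 2 and 0.16 with DESeq2). Apart from the Col3a1 region at 69088 bp, these single regions of Col1a1, Col1a2 and Col3a1 were chosen after their values were seen. Col3a1 and Col5a2, neighbours on chromosome 1, had 28 regions together, 2 higher and 3 lower.

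**Figure D3:**
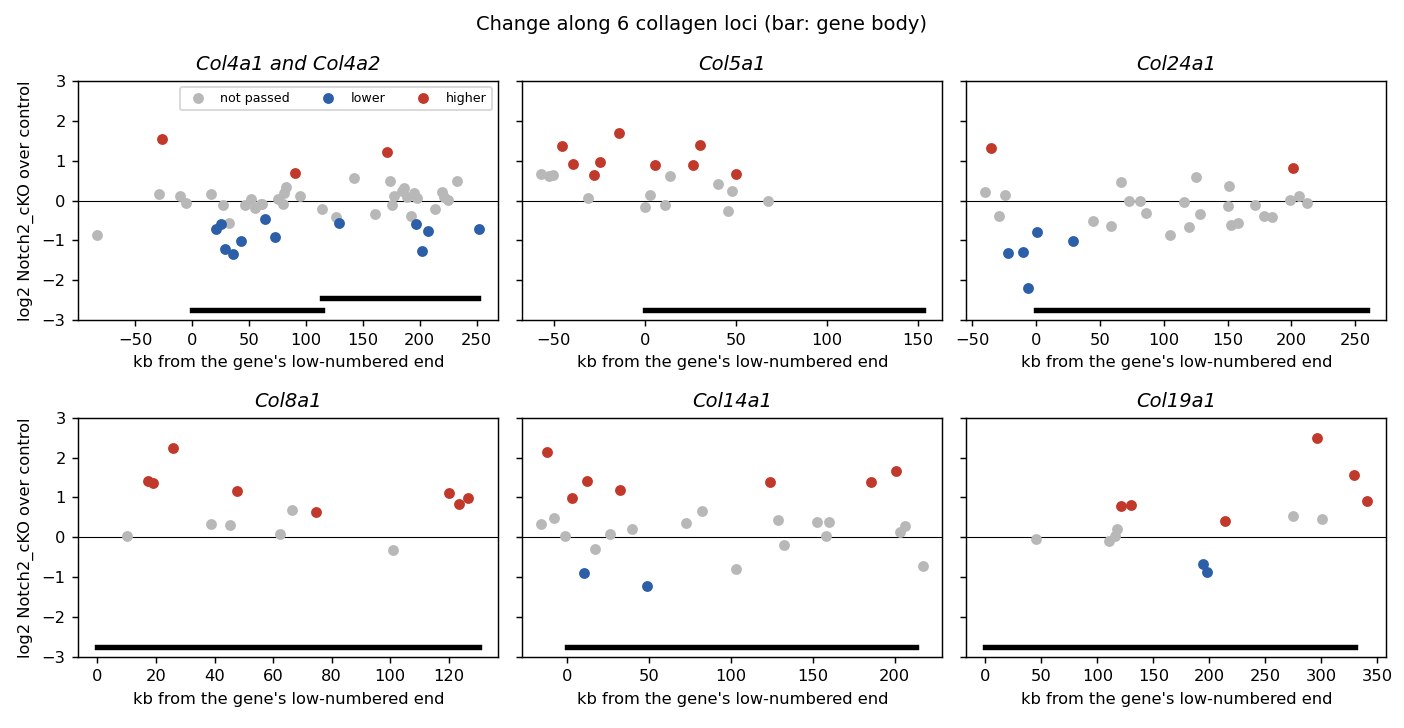
Change along 6 collagen loci: each point is a region at its distance in kb from the low-numbered end of the gene (of Col4a1 in the first panel), with log2 of Notch2_cKO over control on the vertical axis, red for higher, blue for lower and grey for not passed; black bars are gene bodies. Genes run left to right except Col4a1, Col8a1 and Col19a1, whose start is at the right end of the bar. Of the Col4a1 and Col4a2 regions 12 are blue and 3 red, Col5a1 and Col8a1 show only red among called regions, and Col24a1 is blue near its start.

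Basement membrane collagens had 93 regions at 8 genes, with 10 higher, 14 lower and 69 not passed (25.8% called; 11.3% of all regions were lower). The summed levels were 786, 784, 787 and 790 CPM. At an adjusted p under 0.01 the balance turned, to 7 higher and 6 lower. Without control 2 the counts were 6 and 6, beside 15.5% of all regions called.

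The lower calls gathered at Col4a1 and Col4a2, which encode the chains of the collagen IV network found in nearly all basement membranes. These genes lie head to head, with starts 21 bp apart, and 1 region holds both starts. That region held 19.8, 21.6, 20.0 and 14.9 CPM and did not pass (log2 -0.22, SE 0.14, edgeR adjusted p = 0.294). Of the 50 regions of the pair 12 were lower and 3 higher, and without control 2 there were 3 lower regions at Col4a1 and 2 at Col4a2. Of the 12, 7 lay inside Col4a1 between 41776 and 93376 bp from its start. The region of smallest p (chromosome 8, 11234001 to 11234600) held 8.84, 11.6, 3.95 and 4.18 CPM (log2 -1.34, SE 0.18, edgeR adjusted p = 2.22e-05). The next, at 11227351 to 11227950, held 7.08, 7.29, 3.11 and 3.08 CPM (log2 -1.21, SE 0.18, edgeR adjusted p = 6.34e-05). Inside Col4a2 a region at 11400151 to 11400750 held 3.83, 3.28, 1.47 and 1.46 CPM (log2 -1.27, SE 0.23, edgeR adjusted p = 0.000478). All 3 had both Notch2_cKO libraries below both controls. One region 26673 bp beyond the far end of Col4a1 (11171451 to 11172050) was higher, with 2.63, 2.06, 7.61 and 5.77 CPM (log2 1.56, SE 0.21, edgeR adjusted p = 1.78e-05). Mural cells also make these chains; the summed level of their marker regions was 677, 664, 644 and 696 CPM, and its part in the collagen IV result was not tested.

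Col4a6, a collagen IV chain of epithelial and smooth muscle basement membranes, went the other way. Inside the gene on chromosome X, a region at 141439351 to 141439950 held 1.42, 1.07, 5.97 and 6.45 CPM (log2 2.31, SE 0.22, edgeR adjusted p = 5.07e-07), and one at 141363201 to 141363850 held 1.73, 1.47, 5.10 and 5.07 CPM (log2 1.67, SE 0.21, edgeR adjusted p = 1.21e-05). Both Notch2_cKO libraries were above both controls at both regions. Over best windows, chromosome X took 2.67%, 2.61%, 2.46% and 2.51% of counts, lower in Notch2_cKO. Col4a4, a chain of the glomerular and cochlear network, had 1 higher region of 5 (log2 1.37, SE 0.29, edgeR adjusted p = 0.00139; 0.109 without Notch2_cKO 1).

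The multiplexins Col15a1 and Col18a1, whose C-terminal fragments include endostatin in the case of Col18a1, had 29 regions and changed at single ones. A region inside Col18a1, 3295 bp before an internal annotated start (chromosome 10, 77116601 to 77117350), held 15.4, 14.9, 7.73 and 7.04 CPM (log2 -1.02, SE 0.15, edgeR adjusted p = 4.6e-05), with the groups not overlapping. The most accessible region of the class, inside Col15a1 (chromosome 4, 47293751 to 47294450), held 50.2, 48.8, 60.7 and 66.8 CPM (log2 0.36, SE 0.09, edgeR adjusted p = 0.0081). That call was lost with TMM scaling (0.184), with median centring (0.163), without control 1 (0.117), without control 2 (0.173) and with DESeq2.

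FACIT collagens had the largest share of called regions among the 4 classes: 20 higher, 13 lower and 64 not passed of 97 at 9 genes (34.0%, beside 23.7% of all regions and 12.4% of them higher). The classes were not tested against each other. The summed level was 629, 592, 690 and 748 CPM, with both Notch2_cKO libraries above both controls. Without control 1 the class had 21 calls, 15 higher and 6 lower, beside 16.4% of all regions called.

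Col14a1, which binds fibril surfaces and is expressed by many fibroblasts, had 7 higher and 2 lower of 26 regions. Inside the gene, a region at 55319651 to 55320200 on chromosome 15 held 5.98, 6.43, 15.8 and 17.7 CPM (log2 1.42, SE 0.15, edgeR adjusted p = 1.6e-06). Outside it, 12094 bp away (55295301 to 55295900), a region held 0.747, 1.00, 3.76 and 4.06 CPM (log2 2.13, SE 0.25, edgeR adjusted p = 5.43e-06). A lower region between other higher ones (55355951 to 55356500) held 3.78, 3.00, 1.47 and 1.38 CPM (log2 -1.23, SE 0.24, edgeR adjusted p = 0.000866).

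Col12a1, a FACIT chain of dense connective tissue and tendon, had 5 higher and 5 lower of 25 regions, and the higher ones included the more accessible. Lower regions numbered 2 without control 1, 1 without control 2 and 1 without Notch2_cKO 1. Inside the gene (chromosome 9, 79610151 to 79610800) a region held 20.0, 16.6, 35.0 and 41.2 CPM (log2 1.05, SE 0.13, edgeR adjusted p = 6.39e-06). At 79718501 to 79719050, a region chosen after its values were seen, the levels were 42.8, 38.2, 58.8 and 64.0 CPM (log2 0.60, SE 0.10, edgeR adjusted p = 0.000192). The 5 lower regions held at most 11.3 CPM in any library.

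Col19a1 and Col9a1 lie next to each other on chromosome 1 and went opposite ways. Col19a1 had 6 higher and 2 lower of 14 regions, and 3 higher and 0 lower without control 1. The region inside the gene at 24553351 to 24554050 held 3.86, 3.00, 18.5 and 20.2 CPM, the smallest p of all collagen regions (log2 2.50, SE 0.17, edgeR adjusted p = 1.06e-08). At Col9a1, a cartilage FACIT chain, 1 of 3 regions was lower, at 24179351 to 24179650, with 1.75, 1.96, 0.864 and 0.837 CPM (log2 -1.11, SE 0.29, edgeR adjusted p = 0.00837; 0.0825 without control 2 and 0.156 with DESeq2). Neighbouring regions within 500000 bp of Col19a1 had a median log2 change of -0.09.

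Both regions of Col9a3, another collagen IX chain, were lower. The one at 180611951 to 180612500 on chromosome 2 held 3.37, 2.97, 1.38 and 0.919 CPM (log2 -1.37, SE 0.25, edgeR adjusted p = 0.000522), and the one at 180600501 to 180601150 held 6.99, 6.26, 4.44 and 3.78 CPM (log2 -0.66, SE 0.18, edgeR adjusted p = 0.0109; 0.0853 without control 1 and 0.116 with DESeq2). The most accessible FACIT region, inside Col22a1 (chromosome 15, 72033901 to 72034500), a collagen of muscle-tendon junctions, held 69.7, 65.3, 54.4 and 54.2 CPM (log2 -0.31, SE 0.09, edgeR adjusted p = 0.0165). That call was lost with the replicate block (0.062), without control 1 (0.284) and without control 2 (0.119). Over the chains of collagens II, IX and XI, which make cartilage fibrils and were grouped after their values were seen, 2 of 23 regions were higher and 4 lower; regions of the chondrocyte markers Acan, Matn1 and Matn3 were 2 higher and 0 lower of 9.

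The other collagens had 183 regions at 15 genes, with 26 higher, 20 lower and 137 not passed (25.1% called, beside 23.7%). Their summed level was 984, 958, 1018 and 1009 CPM.

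Col8a1, which encodes a short network-forming chain made by vascular and stromal cells, had 8 higher, 0 lower and 6 not passed of 14 regions, all inside the gene. The region at 57649751 to 57650350 on chromosome 16 held 0.702, 0.882, 3.60 and 4.06 CPM (log2 2.24, SE 0.26, edgeR adjusted p = 4.02e-06), and one at 57641301 to 57641950 held 1.83, 3.05, 6.67 and 6.46 CPM (log2 1.42, SE 0.21, edgeR adjusted p = 7.09e-05). Both Notch2_cKO libraries were above both controls in all 8. Without control 2, 5 were higher. The 69 other regions within 500000 bp had a median log2 change of -0.08, with 12 higher and 14 lower.

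Col23a1, a transmembrane collagen, had 4 higher and 0 lower of 15 regions, all 4 at least 2-fold. The region at 51485001 to 51485450 on chromosome 11 held 0.710, 1.11, 6.85 and 4.61 CPM, the largest rise among collagen regions (log2 2.68, SE 0.26, edgeR adjusted p = 6.41e-07). One at 51473501 to 51474150 held 2.3, 2.73, 9.33 and 8.41 CPM (log2 1.83, SE 0.19, edgeR adjusted p = 9.49e-07). These lay 195280 and 183880 bp from a start that did not pass (log2 -0.01). Within 500000 bp of this gene the median log2 change was 0.19 over 59 other regions, 13 higher and 2 lower.

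The other transmembrane collagens did not go one way. Col17a1, the hemidesmosomal collagen, had 1 higher and 0 lower of 3 regions, and the higher one (chromosome 19, 47699601 to 47700200, chosen after its values were seen) held 0.992, 0.97, 1.88 and 2.98 CPM (log2 1.22, SE 0.29, edgeR adjusted p = 0.00472). At Col25a1 4 of 25 were lower (1 without control 1), and the one 13795 bp before the start (chromosome 3, 130166751 to 130167400) held 8.64, 7.40, 3.24 and 3.78 CPM (log2 -1.22, SE 0.18, edgeR adjusted p = 6.91e-05). At Col13a1, which is known from cell adhesion sites and the neuromuscular junction, 4 of 14 were lower, and 3 of them lay just beyond the end opposite the start. Among these, the region at 61830401 to 61831100 on chromosome 10 held 3.92, 3.60, 1.50 and 1.23 CPM (log2 -1.41, SE 0.23, edgeR adjusted p = 0.000175). Col28a1, a collagen of peripheral nerve, had 1 higher and 3 lower of 18, with 7.58, 6.97, 3.11 and 2.85 CPM at 8173901 to 8174500 on chromosome 6 (log2 -1.27, SE 0.18, edgeR adjusted p = 4.58e-05). The lower regions of Col28a1 numbered 1 without Notch2_cKO 1 and 2 without control 2. At each of the 3 named lower regions the groups did not overlap.

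Collagen VI, which forms beaded filaments around cells, had 75 regions at 6 genes, 11 higher and 8 lower (25.3% called, beside 23.7% of all regions). All 3 called regions of Col6a1 were lower and outside the gene, 43944 to 56944 bp from its start. Without Notch2_cKO 1, 2 regions of the gene were lower and 1 was higher. The most accessible of the 3 (chromosome 10, 76668751 to 76669400) held 33.6, 33.1, 19.1 and 22.4 CPM (log2 -0.70, SE 0.12, edgeR adjusted p = 0.000248). Col6a4, Col6a5 and Col6a6, which lie in a row on chromosome 9, had 8 higher and 3 lower of 40. The most accessible region of the other collagens, the start of Col6a4, held 36.6, 34.3, 32.9 and 37.9 CPM and did not pass (edgeR adjusted p = 0.961). At Col6a3 2 regions were higher and 2 lower of 18; the lower one 13879 bp before the start, chosen after its values were seen, had 0 counts in Notch2_cKO 2 and 1.01, 1.26 and 0.421 CPM in the other libraries.

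To give each gene 1 value, counts were summed over its regions and fitted in the same way over 17693 genes. Of the 43 collagen genes 12 were higher, 3 lower and 28 not passed (34.9% called, beside 18.7% of all genes, 10.4% higher and 8.33% lower). Collagen genes had more regions than others, with a median of 12 against 3. Among genes with at least 10 regions, 10 of 27 collagen genes were called, all higher (37.0%), beside 32.2% of all 2724 such genes, 671 higher and 207 lower. Among those with fewer, 5 of 16 collagen genes were called, 2 higher and 3 lower (31.2%), beside 16.3% of all 14969. Fewer collagen genes were called with either control left out, and with median centring the split was 11 higher and 1 lower. The share of all genes called under these settings is not given here, so these counts are not read as particular to collagens. No collagen gene sum that passed changed by at least 2-fold.

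**Figure D4:**
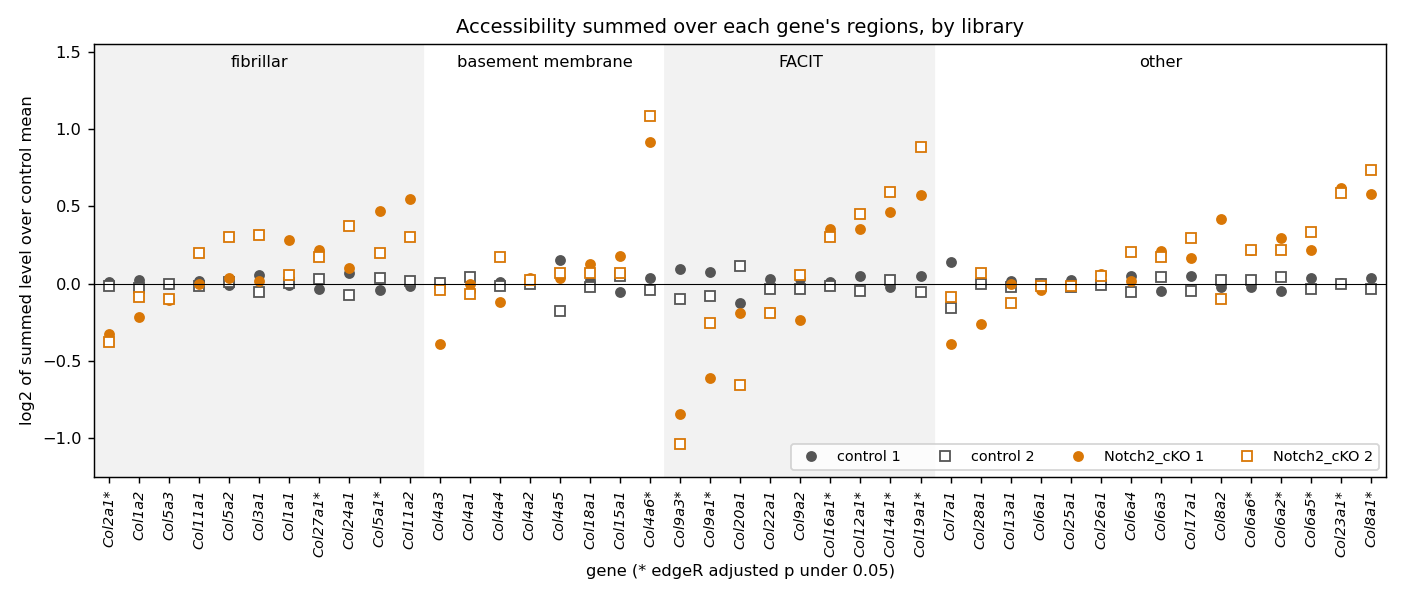
Accessibility summed over each gene's regions, shown as log2 of each library's level over the mean of the 2 controls; filled grey circles are control 1, open grey squares control 2, filled orange circles Notch2_cKO 1 and open orange squares Notch2_cKO 2, and an asterisk marks an edgeR adjusted p under 0.05. Genes are ordered by change within each class, and Col4a6, Col19a1, Col8a1 and Col23a1 lie highest and Col9a3 lowest, with both Notch2_cKO libraries on one side of both controls.

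Calls of 7 gene sums held under each alternative fitted to single genes (other scalings and tests, replicate blocks, narrower assignment and each library left out). Col4a6 held 11.0, 10.4, 20.1 and 22.7 CPM (log2 0.99, SE 0.13, edgeR adjusted p = 0.000194). Col19a1 held 72.8, 67.7, 104 and 130 CPM (log2 0.72, SE 0.09, edgeR adjusted p = 0.000202), and Col8a1 54.6, 52.0, 79.7 and 88.5 CPM (log2 0.65, SE 0.08, edgeR adjusted p = 0.000166). Col23a1, Col14a1 and Col12a1 were higher too (log2 0.60, 0.53 and 0.40). Col9a3 was lower, with 11.5, 10.0, 6.01 and 5.24 CPM (log2 -0.91, SE 0.16, edgeR adjusted p = 0.00157). In all 7 the groups did not overlap.

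The other 8 calls were smaller or rested on a setting. Col5a1 (log2 0.35) lost its call only when regions beyond 10000 bp were left out (edgeR adjusted p = 0.0679). Col16a1, a FACIT chain found with several fibril types, kept its call with all regions (log2 0.33, edgeR adjusted p = 0.0073) but not within 10000 bp (0.247), inside the gene (0.187), without control 1 (0.0604) or without control 2 (0.0766). Col2a1 (log2 -0.35) and Col9a1 (log2 -0.45), the lower ones, and Col27a1, Col6a2, Col6a5 and Col6a6 (log2 0.20 to 0.27) each lost their call without control 1 and without control 2 and under at least 1 other setting. Col1a1, Col1a2 and Col3a1 did not pass (log2 0.19, -0.15 and 0.17; edgeR adjusted p = 0.132, 0.0827 and 0.201), and neither did Col4a1 and Col4a2 (log2 -0.03 and 0.03) beside their 12 lower regions. The sum of Col24a1 did not pass (log2 0.24, edgeR adjusted p = 0.0676) but was called higher with the replicate block (0.0455), without control 1 (0.0412) and without Notch2_cKO 1 (1.8e-05), beside 5 lower and 2 higher single regions. Leaving out 1 Notch2_cKO library changed several of these: without Notch2_cKO 1, Col3a1 (log2 0.32) and Col5a2 (log2 0.30) were called higher, and without Notch2_cKO 2, Col1a1 (log2 0.29) was called higher and Col1a2 (log2 -0.20) lower. Col1a1 lies in surroundings with a median log2 change of 0.22 over 74 regions, close to its own value.

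Genes that process and secrete procollagen were read in the same fit. Of 281 regions at 34 of 35 such genes, 32 were higher, 31 lower and 218 not passed (22.4% called, beside 23.7% of all regions). Without control 2, 39 were called, beside 15.5% of all regions. Inside Adamts2, which cleaves the N-terminal propeptide of fibrillar procollagens, a region (chromosome 11, 50648401 to 50648950) held 0.384, 0.367, 2.03 and 2.82 CPM (log2 2.61, SE 0.34, edgeR adjusted p = 1.64e-05). Sec24d, a coat protein needed to export procollagen, had a region at 1.91, 1.87, 5.19 and 5.76 CPM (log2 1.52, SE 0.21, edgeR adjusted p = 2.17e-05), and P4ha3, a prolyl 4-hydroxylase subunit, one at 2.58, 1.91, 6.12 and 6.38 CPM (log2 1.48, SE 0.20, edgeR adjusted p = 2.56e-05). All 3 were higher in both Notch2_cKO libraries. Lower ones were found at P3h2, a prolyl 3-hydroxylase of basement membrane collagen, with 3.67, 3.17, 0.622 and 1.15 CPM (log2 -2.10, SE 0.29, edgeR adjusted p = 2.43e-05), and 76892 bp from Tll1, a procollagen C-proteinase, with 1.70, 2.30, 0.466 and 0.303 CPM (log2 -2.26, SE 0.35, edgeR adjusted p = 9.96e-05). Adamts3, a related propeptidase, had 0 higher and 5 lower of 16 regions, while Adamts2 had 7 higher and 3 lower of 32. The collagen chaperone Serpinh1 had 4 regions and none passed, and the crosslinking oxidases Loxl1 (3 higher and 1 lower of 11) and Loxl4 (3 higher and 0 lower of 6) had calls mostly upward.

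Collagen receptor genes had 114 regions at 11 genes, 14 higher, 14 lower and 86 not passed (24.6% called, beside 23.7%); with median centring the split was 15 higher and 9 lower, and without Notch2_cKO 1 it was 15 and 4, beside 19.7% of all regions called. Itga1, the collagen-binding integrin chain that prefers collagen IV, had 10 lower and 1 higher of 32 regions. Its region of smallest p, 68886 bp from the gene (chromosome 13, 115170501 to 115171200), held 14.5, 15.2, 3.10 and 3.97 CPM (log2 -2.12, SE 0.17, edgeR adjusted p = 8.99e-08). Ddr2, a receptor tyrosine kinase for fibrillar collagen, had 5 higher and 0 lower of 15, and the first of these (chromosome 1, 170057901 to 170058500) held 22.4, 23.5, 36.3 and 40.0 CPM (log2 0.73, SE 0.11, edgeR adjusted p = 9.3e-05). Itga10 and Mrc2, a collagen uptake receptor, had higher regions (log2 1.92 and 0.77), and Itgb1, the partner of the collagen-binding integrins, a lower one (log2 -0.86, edgeR adjusted p = 0.000367). A lower region of Itga2 (log2 -0.83, edgeR adjusted p = 0.00828) lost its call without control 1 (0.0645), without Notch2_cKO 1 (0.25) and with DESeq2.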

How the data were processed

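ATAC-seq was done on 50000 sorted FRCs per library, from pools of 6 mice, with 2 libraries per genotype, per the labels. The submitters' processing notes name Bowtie2 2.4.5, Trim Galore 0.6.7, deepTools, Picard 2.27.5, SAMtools 1.14 and cutadapt, with build mm10, and windows were counted in csaw, per the labels. Not given in the sources used here are the csaw version, the peak caller, the filter on windows and whether reads were shifted for the transposase.

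Deposited were whole-number counts in 678058 windows, 300 bp wide and 50 bp apart. The labels describe these counts as loess normalized. However, library totals over all windows differed up to 2.44-fold, and histograms of low values had none of the gaps that scaling and rounding leave (roughness 0.915 to 1.19, against 2.96 to 610 for the same values scaled), so they were used as counts. Merging windows with gaps of at most 100 bp gave 110110 regions (median 600 bp), each represented by its window of largest summed count. The midpoint of that window was assigned to the protein-coding RefSeq genes (21887, GRCm38.p6), which gave 95447 regions a gene. Genotype was fitted with edgeR 4.0.16 (quasi-likelihood) under R 4.3.3 with loess offsets (span 0.3, pseudocount 0.5) from limma 3.58.1, without a replicate term and with no filter on low counts, and adjusted by Benjamini and Hochberg over all regions. The SE is the absolute log2 change divided by the root of edgeR's F. DESeq2 1.42.0, the data.table package (version 1.17.8), Python 3.11.15, pandas 2.3.3 and matplotlib 3.10.9 were also used. For this comparison, counts simulated for 110110 regions were tested: edgeR found 20.9% of 67 regions with a 1.5-fold change, 58.2% of 67 at 2-fold and 98.5% of 66 at 4-fold, and made 12 false calls. Only these regions were changed, all drawn above a floor of mean count, whereas 26115 regions were called in the data. The adjusted p depends on how many regions change, so these values do not give the recovery or false calls in the data.

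Replicate pairs differed by more than sampling noise (chi-square per region 1.93 for controls and 2.79 for Notch2_cKO, against 10.6 for control 1 and Notch2_cKO 1), so each library counted as 1 sample. The collagen, processing and receptor genes, the marker lists and the rule for named regions were chosen with earlier results of these data known. A few marker genes, and the result of 1 marker list, are not reported here. By that rule single regions are named where they have the 4 smallest p in each class and direction with non-overlapping groups (at most 2 per gene and direction), the highest level of a class, or lie at the start of main structural genes, with up to 3 per direction from the processing and receptor lists. Alternatives were other scalings, tests, filters, thresholds, merging and gene distances, a replicate block and each library left out.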

Additional observations from a re-analysis of the deposited data

How the results depend on the processing

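All 142 collagen calls kept their direction under each other scaling, test, block and left-out library. The groups did not overlap at any of them, so a direction could hardly turn, and its keeping is no support. Of the 142, 138 were also called with TMM, 135 with median centring, 137 with limma and 68 with DESeq2. With the lowest 25% of regions left out, 120 of 391 collagen regions were called, beside 21707 of all 82582. They included 119 of the 142, and the other 23 lay among the regions left out. DESeq2 called 12797 of all regions, 21 fibrillar, 10 basement membrane, 17 FACIT, 20 other collagen, 19 processing and 16 receptor regions. At an adjusted p under 0.01 there were 15585 calls in all, 88 collagen, 13 basement membrane, 19 FACIT, 27 other collagen and 32 processing regions and 9 gene sums. With at least 2-fold change there were 10902, 59 collagen, 12 fibrillar, 10 basement membrane, 13 FACIT, 24 other collagen, 20 processing and 9 receptor regions and 0 gene sums. Within 10000 bp, 22 of 101 fibrillar and 17 of 83 receptor regions were called. Inside genes, calls were made at 18 of 83 fibrillar, 30 of 125 other collagen and 14 of 71 receptor regions. Over all regions, at any distance, 23.7% were called. For gene sums, the share over all genes is given for the main fit only. The Col6a1 gene sum turned from -0.03 to 0.28 within 10000 bp (edgeR adjusted p = 0.0272). With 1 library left out, whose group then rests on a lone library assumed to vary like the other group, calls ranged from 17113 to 30265 in all, from 93 to 167 for collagen, 25 to 50 fibrillar, 12 to 25 basement membrane, 21 to 37 FACIT, 32 to 55 other collagen, 39 to 77 processing and 19 to 34 receptor regions and 8 to 21 gene sums. Without control 2, the library with Y-linked counts, 93 of the 142 collagen calls remained.

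The replicate numbers do not pair the samples: deviations of same-numbered libraries correlated at -0.194. With the replicate block, 130 collagen regions (74 higher and 56 lower) were called, beside 23165 of all 110110 regions. Among collagen gene sums the block called 12. A crossed pairing, chosen after seeing the data, gave 192 collagen regions, beside 34937 of all 110110 regions, and 22 collagen gene sums. The share of all gene sums called under either pairing is not given here. In the simulation, where far fewer regions changed than were called in the data, 20.9% of 1.5-fold changes were found.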
